A study of Homo sapiens with 9 samples.

Results

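The cytosolic chaperonin CCT, also called TRiC, was followed here through the ribosome footprints on the mRNAs of its 8 subunits, TCP1 (the alpha subunit), CCT2, CCT3, CCT4, CCT5, CCT6A, CCT7 and CCT8. The members were taken as the rows with these gene names in both deposited tables, and 8 of 8 were found among the 9221 genes that the tables hold together. The members were named for the complex and not for how they changed. Ribosome profiling reads out the short pieces of mRNA that a translating ribosome shields from nuclease, so the reads on a coding sequence count the ribosomes on it. In footprints alone, a change in mRNA amount and a change in ribosomes per mRNA cannot be told apart. Cells of Huh-7, a line from a human liver tumour, were treated for 1 hr with 1.5 µM PF8503, with 1.5 µM PF846, or with 0.5% DMSO as vehicle, with 3 biological replicates per condition and 9 libraries in all. PF846 and PF8503 are related small molecules that bind the human ribosome and stall it on selected nascent chains. Huh-7 is a single line, so the values describe that line only. All 9 of the hepatocyte markers set down for this report were in both tables, and of the 7 markers for leukocytes, endothelium and fibroblasts 1, the endothelial PECAM1, was.

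CCT is a double ring in which each ring holds 1 copy of every subunit. The subunits are paralogs that each bind and hydrolyse ATP, and the cycle closes a built-in lid over the folding chamber. Actin and the tubulins depend on it, as do many proteins with WD40 repeats, and the hexameric prefoldin hands it unfolded chains. Because assembly needs every subunit in equal number, the relative rate at which the subunits are translated is a natural quantity to read from footprints.

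The deposited values are means over the libraries of a condition, but the whole reads behind each mean could be recovered because the means are written to 15 digits (see the account of the processing). The libraries are called a, b and c within each condition in order of increasing depth, since the recovered reads carry no replicate number. The reads on transcripts found in both tables came to 7517721, 10025659 and 12125745 for vehicle, 6659675, 9886654 and 11711477 for PF8503 and 4846174, 6311086 and 14951774 for PF846. All 8 subunits had the same vehicle reads in both tables, as would be the case if the same codons had been counted in both. A single subunit had between 4579 and 23052 reads in a library. One library of each condition, the c library, deviated from its own group in a shared way. After each group was centred, the first principal component held 50.3% of the variance and separated the 3 c libraries from the other 6. Their deviations correlated at 0.618 to 0.652 with each other and at -0.519 to -0.302 with the other libraries of other conditions. These correlations run across transcripts, which are not independent replicates. Because each group was centred, positive correlations among the c libraries force those with the other libraries to be negative on average, so their sign adds nothing. Values without these libraries are given for the vehicle levels of CCT6A, CCT4 and CCT3, for the range or median of the ring's fold changes and for the fold changes of HSPE1.

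The subunits are encoded on 7 chromosomes, with CCT4 and CCT7 both on chromosome 2. On GRCh38 in GENCODE version 44, TCP1 lies at chr6:159778498-159789703 on the minus strand, CCT2 at chr12:69585426-69601570 on the plus strand, CCT3 at chr1:156308968-156367873 on the minus strand and CCT4 at chr2:61868085-61888671 on the minus strand. CCT5 lies at chr5:10249929-10266389, CCT6A at chr7:56051685-56063989 and CCT7 at chr2:73233420-73253021, all on the plus strand, and CCT8 at chr21:29055805-29073797 on the minus strand. The canonical transcripts have 11 to 16 exons and encode 531 to 556 residues, so the subunits are close to each other in length. Footprints were counted over coding exons only. Between any pair of the 8 proteins, 27.17% to 39.47% of aligned residues were identical, with a median of 32.55% over 28 pairs. The most alike pair was CCT4 and CCT5 and the least alike was CCT6A and CCT8.

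The paralogs share an ATP-binding site whose glycine-aspartate-glycine-threonine motif is among the most conserved stretches of the family. The 30 coding bases around it are shown because they let the paralogs be compared base by base at a site that all of them keep. The 12 bases of the motif are in capitals.
TCP1: gaagttGGAGATGGAACTacttcagtggtt
CCT2: gaagttGGTGATGGCACTacctctgttacc
CCT3: gaggttGGAGATGGGACCacatcagtaatt
CCT4: gaagcaGGAGATGGCACCacatcagtagtc
CCT5: gaaattGGAGATGGAACCacaggagtggtt
CCT6A: ataactGGTGATGGTACGacttctaatgtc
CCT7: gaggtgGGTGATGGCACCacctcagtgacc
CCT8: gaagttGGAGATGGCACAaactttgttctg
CCT6B: gtcacaGGAGATGGTACTacttcaaatgtt

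CCT6B, on chromosome 17, is a testis-enriched paralog of CCT6A and is no member of the ring list. In this stretch any pair of the 8 subunits differed at 5 to 15 of the 30 bases, and CCT6A differed from CCT6B at 7. Over the whole counted region, no window of 28 bases (about the length of a footprint) in TCP1, CCT2, CCT3, CCT4, CCT5, CCT7 or CCT8 occurred in the canonical coding transcript of another gene. In CCT6A, 2 of 1512 windows (0.13%) also occurred in CCT6B, in a single stretch of 29 bases at codons 445 to 454.
CCT6A and CCT6B: ctcattattcccaaggttcttgctcagaa

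CCT6A and CCT6B proteins shared 85.85% of aligned residues. CCT6B had 76, 94 and 132 reads in vehicle a, b and c, against 11775, 16223 and 18539 for CCT6A. Shorter matches and matches with mismatches were not examined.

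The footprints on the ring fell into a higher and a lower set. CCT6A, CCT4 and CCT3 carried more ribosomes per codon than the other 5 subunits in all 9 libraries. Levels are given here as normalised reads (reads divided by a size factor computed over the 9 libraries) per counted codon, where codons are counted from codon 10 to 10 codons before the end. CCT6A, the zeta subunit, had 27.09, 27.60 and 26.12 reads per codon in vehicle a, b and c. CCT4, the delta subunit, had 26.33, 25.88 and 26.69, and CCT3, the gamma subunit, had 24.42, 23.68 and 25.37. The vehicle values of these 3 subunits all lay above 23 reads per codon. CCT7, the eta subunit, had 16.14, 16.52 and 16.53 reads per codon, and CCT8, the theta subunit, had 16.43, 16.10 and 15.82. CCT5, the epsilon subunit, had 14.83, 15.02 and 16.40, CCT2, the beta subunit, had 15.44, 14.97 and 15.68, and TCP1 had 14.89, 15.30 and 15.55. The vehicle values of these 5 subunits all lay below 17 reads per codon.

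As a percent of the mean over the 8 subunits in the same library, the vehicle levels were 137.94% ± 5.27 for CCT6A, 134.63% ± 0.995 for CCT4 and 125.35% ± 3.09 for CCT3 (SD, n = 3 libraries). They were 83.94% ± 1.15 for CCT7, 82.51% ± 2.28 for CCT8, 78.91% ± 3.56 for CCT5, 78.65% ± 1.21 for CCT2 and 78.06% ± 1.30 for TCP1. CCT6A and CCT4 differed by 3.31 percentage points and their ranges overlapped in the vehicle libraries. CCT4 stood 9.28 points above CCT3, with no overlap in the vehicle libraries but with overlap over all 9. CCT3 stood 41.41 points above CCT7, the next in order, and the ranges of this pair did not overlap over the 9 libraries. Each of the 4 steps below CCT7 was 3.61 points or less, and the ranges of the neighbours overlapped. CCT7 was above CCT8 in 8 of the 9 libraries and CCT8 above CCT5 in 5. CCT5 was above CCT2 in 6 and CCT2 above TCP1 in 4. The order of neighbours among the 5 lower subunits was therefore not the same in all libraries. CCT7 stood above CCT5 in every library, though their ranges overlapped. CCT7, at 82.72% to 89.48% over the 9 libraries, did lie above CCT2 (73.14% to 79.89%) and TCP1 (74.47% to 81.93%) without overlap. These orders and the split into a higher and a lower set were seen after the values were known and are descriptions with no test.

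**Figure D1:**
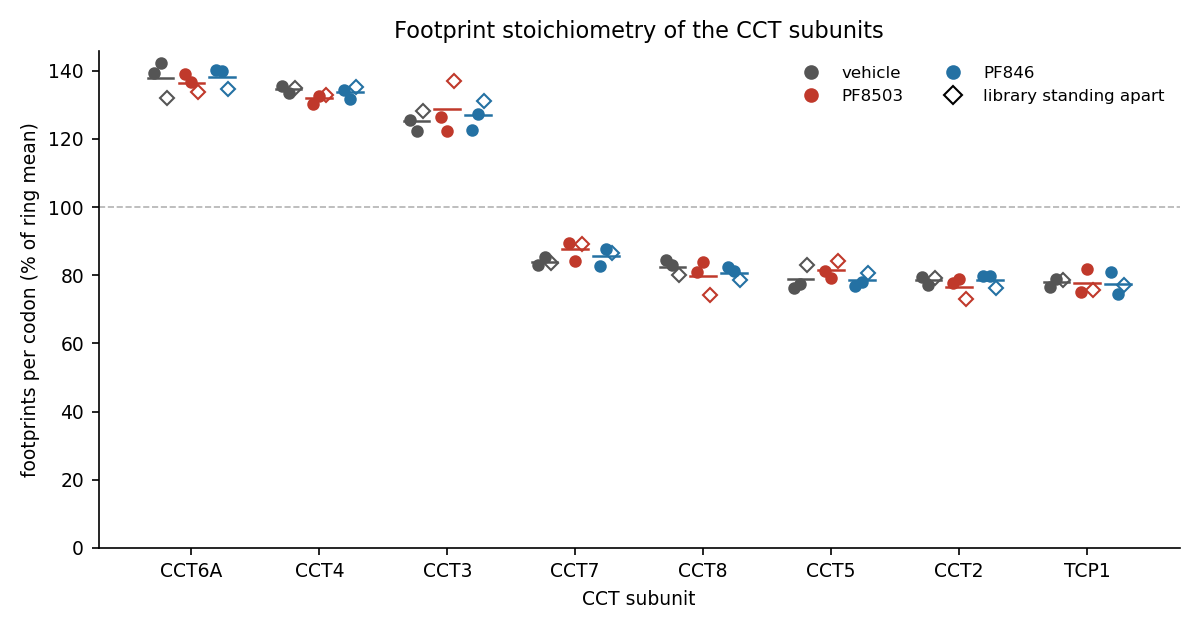
Footprints per codon on each CCT subunit as a percent of the mean over the 8 subunits of the same library (vertical axis), for vehicle, PF8503 and PF846 (3 libraries each). Short lines are group means and open diamonds mark the c library of each condition. CCT6A, CCT4 and CCT3 lie between 122.16% and 142.39%, and the other 5 subunits between 73.14% and 89.48%.

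The split was present with each compound. The mean level of CCT6A, CCT4 and CCT3 over that of the other 5 subunits was 1.65 ± 0.020 with vehicle, 1.64 ± 0.051 with PF8503 and 1.66 ± 0.015 with PF846 (ratio, SD, n = 3 each), and it lay between 1.60 and 1.70 in the 9 libraries. The lowest of the 3 higher subunits exceeded the highest of the 5 lower ones by 1.41-fold in PF8503 a, where the gap was smallest. The ratio of the highest to the lowest subunit was 1.80 ± 0.069 with vehicle, 1.82 ± 0.074 with PF8503 and 1.82 ± 0.055 with PF846. With PF8503, the subunits stood at 136.47% ± 2.64 of the ring mean for CCT6A, 131.97% ± 1.54 for CCT4, 128.65% ± 7.57 for CCT3 and 87.62% ± 2.97 for CCT7. CCT5 stood at 81.47% ± 2.38, CCT8 at 79.69% ± 5.01, TCP1 at 77.59% ± 3.77 and CCT2 at 76.54% ± 2.99. With PF846 the values were 138.18% ± 3.16 for CCT6A, 133.75% ± 1.82 for CCT4, 127.03% ± 4.23 for CCT3 and 85.62% ± 2.57 for CCT7. CCT8 stood at 80.76% ± 1.99, CCT2 at 78.63% ± 1.97, CCT5 at 78.52% ± 1.97 and TCP1 at 77.51% ± 3.25. CCT7 thus had the highest mean of the 5 lower subunits in every condition. CCT8, CCT5, CCT2 and TCP1 changed places among themselves from one condition to the next, within the spread between libraries.

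The c libraries had a different leading subunit. CCT6A was the highest of the 8 subunits in all 6 of the other libraries, while CCT4 led in vehicle c and PF846 c and CCT3 led in PF8503 c. The percentages of the ring mean in the c libraries overlapped those in the other 6 libraries for 5 subunits (TCP1, CCT2, CCT4, CCT5 and CCT7) and did not for 3. Taken relative to the same ring mean, 23.8% of all transcripts did not overlap either, and the c libraries were singled out on these same data, so nothing is read from the count of 3. CCT6A stood at 136.71% to 142.39% in the 6 libraries and at 132.13% to 134.53% in the 3 c libraries. CCT3 stood at 122.16% to 127.44% in the 6 and at 128.32% to 137.07% in the 3. CCT8 stood at 80.91% to 84.48% in the 6 and at 74.19% to 80.01% in the 3. Without vehicle c the vehicle levels were 140.85% for CCT6A, 134.45% for CCT4 and 123.87% for CCT3, so the place of CCT6A above CCT4 rested on the a and b libraries. What sets the c libraries apart was not tested.

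Among 8186 transcripts with a coding length and the same vehicle reads in both tables, the median vehicle level was 0.853 reads per codon and the central 95% ran from 0.087 to 23.15. The 8 subunits lay between the 96.12 percentile (TCP1) and the 97.91 percentile (CCT6A) of these levels. Together they took 0.930% ± 0.0136 of the reads with vehicle, 0.917% ± 0.0437 with PF8503 and 0.942% ± 0.0366 with PF846 (SD, n = 3 each). The lowest share, 0.869%, was in PF8503 c and the highest, 0.984%, in PF846 a, and the 3 conditions overlapped.

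Other complexes with fixed stoichiometry were set beside the ring. The 20S proteasome core is built from rings of alpha (PSMA) and beta (PSMB) subunits, and prefoldin from 6 different subunits. In the vehicle libraries the ratio of the highest to the lowest subunit was 1.80 ± 0.069 for the 8 CCT subunits, 22.1 ± 0.274 for the 11 of 14 proteasome core subunits in both tables and 10.6 ± 3.02 for the 6 prefoldin subunits (SD, n = 3). The proteasome value rested on 1 subunit, PSMA1, at 1.16 reads per codon. Without PSMA1, chosen for removal after its value was seen, the ratio over the other 10 was 2.36 ± 0.058. The proteasome core subunits beyond PSMA1 also formed a lower set, from PSMB5 at 10.89 to PSMA3 at 13.77 reads per codon, and a higher set, from PSMA4 at 22.78 to PSMB1 at 25.27. The lowest prefoldin subunit was PFDN1 at 1.76 ± 0.434 reads per codon and the highest PFDN5 at 17.82 ± 0.179. Prefoldin subunits have 122 to 197 residues and the proteasome subunits 201 to 277, so the uncounted codons are a larger share of their length than of the CCT subunits'. Windows shared with other genes were searched for the CCT subunits only. Reads per codon took every transcript as counted from codon 10 to 10 codons before the end, which was not checked for these complexes. The levels of their subunits, PSMA1 among them, are therefore less certain than those of the CCT subunits. Why PSMA1 was low was not tested. The difference between the complexes was not tested, since subunits are not replicates.

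**Figure D2:**
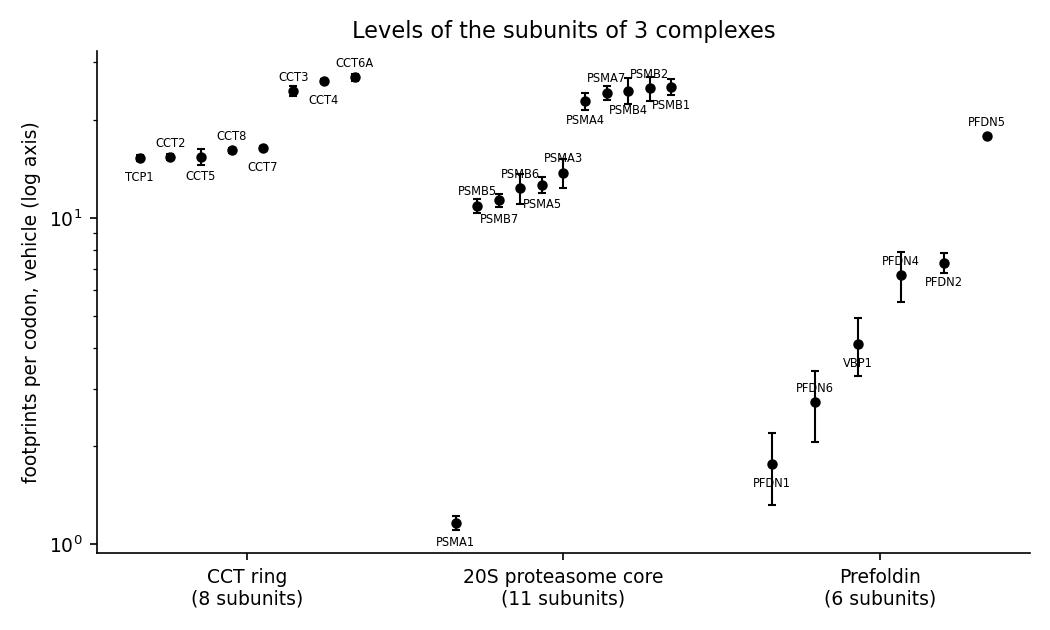
Vehicle footprints per codon (vertical log axis, normalised reads) for the measured subunits of the CCT ring, the 20S proteasome core and prefoldin. Points are means and bars the SD over 3 vehicle libraries, with subunits sorted within each complex. The CCT subunits span 15.25 to 26.94 reads per codon, and PSMA1 and PFDN1 are the lowest of the other complexes.

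Neither compound changed the footprints on any CCT subunit past the threshold (adjusted p under 0.05, limma-trend with Benjamini-Hochberg adjustment over all transcripts of the table). With PF8503, 0 of 8 subunits were higher and 0 of 8 lower, against 37 lower (0.405% of 9146 transcripts) and 0 higher (0.0%) over the whole table (22 lower without vehicle b and 24 without vehicle a). With PF846, 0 of 8 were higher and 0 of 8 lower, against 22 lower (0.249% of 8833) and 0 higher (0.0%). At these shares a count of 0 of 8 does not set the ring apart from the rest. At an unadjusted p under 0.05, which 3.03% of transcripts reached with PF8503 and 1.57% with PF846, 0 of 8 subunits were counted with either compound.

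In the single libraries, CCT6A had 13896, 14159 and 13401 normalised reads with vehicle, 14598, 13453 and 12542 with PF8503 and 14960, 14077 and 13205 with PF846. In both compounds the a library was the highest and the c library the lowest, and the conditions overlapped. CCT4 had 13717, 13482 and 13904 with vehicle, 13888, 13262 and 12670 with PF8503 and 14578, 13457 and 13469 with PF846. CCT3 had 12868, 12479 and 13369 with vehicle, 13645, 12375 and 13207 with PF8503 and 13447, 13173 and 13213 with PF846. For CCT4 and CCT3 too, the ranges of the 3 conditions overlapped.

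CCT7 had 8473, 8672 and 8678 normalised reads with vehicle, 9618, 8479 and 8560 with PF8503 and 9038, 9019 and 8694 with PF846. It was the 1 subunit whose libraries did not overlap between a compound and vehicle, with all 3 PF846 libraries above all 3 vehicle libraries, the closest pair being 8694 and 8678. Over all transcripts, 4.67% did not overlap in that comparison, 6.10% between PF8503 and vehicle and 5.68% between the compounds. CCT8 had 8706, 8532 and 8383 with vehicle, 8780, 8538 and 7189 with PF8503 and 9096, 8444 and 7969 with PF846. The ranges of the 3 conditions overlapped for CCT8.

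CCT5 had 7758, 7853 and 8578 normalised reads with vehicle, 8685, 7955 and 8034 with PF8503 and 8364, 8006 and 8075 with PF846. CCT2 had 7980, 7741 and 8106 with vehicle, 8222, 7814 and 6913 with PF8503 and 8596, 8075 and 7554 with PF846. TCP1 had 8010, 8232 and 8368 with vehicle, 8278, 8456 and 7444 with PF8503 and 9062, 7858 and 7940 with PF846. The conditions overlapped for each of these 3 subunits. PF8503 c was the lowest of the 9 libraries for 5 of the 8 subunits, CCT6A, CCT4, CCT8, CCT2 and TCP1.

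**Figure D3:**
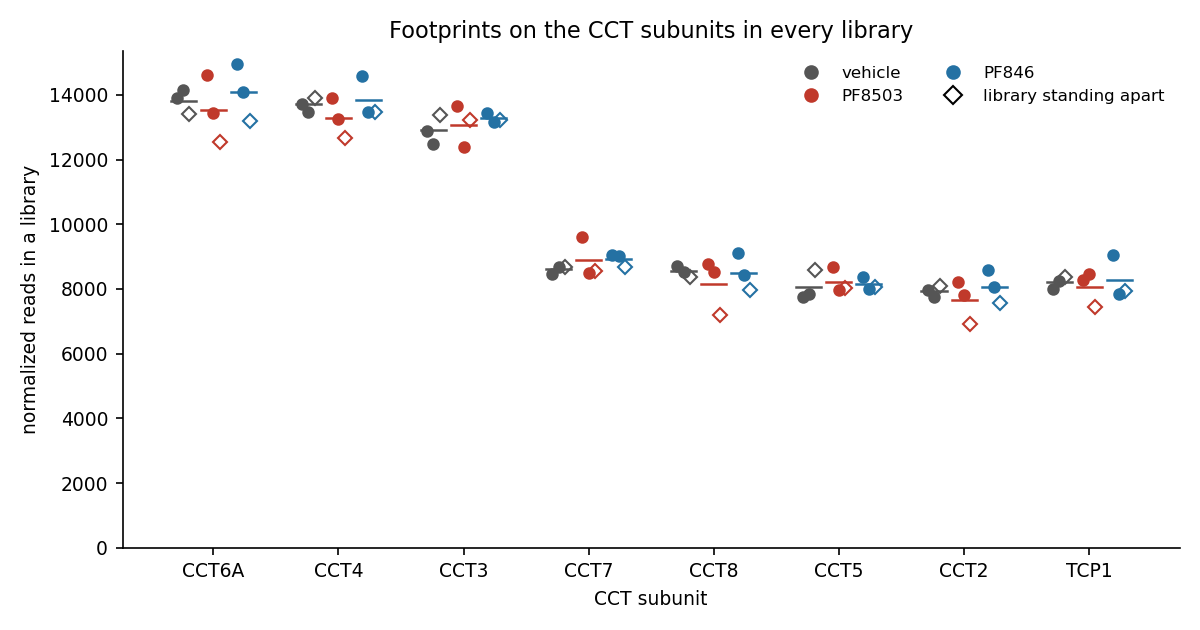
Normalised reads on each CCT subunit (vertical axis) in every library, with vehicle, PF8503 and PF846 side by side (3 libraries each). Short lines are group means and open diamonds mark the c library of each condition. For CCT6A, CCT4, CCT8, CCT2 and TCP1 the lowest of the 9 points is PF8503 c, at 12542, 12670, 7189, 6913 and 7444.

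On the log2 scale, the fitted change with PF8503 ran from -0.07 ± 0.102 for CCT8 to 0.05 ± 0.092 for CCT7 (limma estimate ± SE, n = 3 libraries each, adjusted p = 1.00 for all 8). CCT2 stood at -0.06 ± 0.097, CCT4 at -0.04 ± 0.089, CCT6A at -0.03 ± 0.095 and TCP1 at -0.02 ± 0.092. CCT3 stood at 0.02 ± 0.091 and CCT5 at 0.03 ± 0.092. With all libraries 3 estimates lay above 0 and 5 below. Without the c libraries, 7 lay above 0, and the estimates ran from 0.00 ± 0.101 for CCT4 to 0.09 ± 0.098 for CCT5, with TCP1 at 0.05 ± 0.095, CCT2 at 0.03 ± 0.096 and CCT8 at 0.01 ± 0.095 (limma, lowest adjusted p = 0.999). Leaving out 1 library at a time put between 0 (without PF8503 a) and 7 (without PF8503 c) of the 8 estimates above 0, so their signs depended on which libraries were used. With PF846, the estimates ran from -0.01 ± 0.076 for CCT8 to 0.05 ± 0.069 for CCT7 (limma, adjusted p = 1.00 for all 8), and 7 of 8 lay above 0. The values were 0.04 ± 0.070 for CCT3, 0.03 ± 0.076 for CCT6A, 0.02 ± 0.076 for CCT2, 0.02 ± 0.074 for CCT5, 0.01 ± 0.072 for CCT4 and 0.01 ± 0.079 for TCP1. Without the c libraries all 8 lay above 0, from 0.02 ± 0.085 for CCT8 to 0.08 ± 0.084 for CCT2 (limma, lowest adjusted p = 0.998). Without PF846 a, 2 of 8 lay above 0. With all libraries CCT8 was the lowest and CCT7 the highest estimate with both compounds. Both comparisons use the same vehicle libraries, so this order is not independent.

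The intervals bound the size of change that these libraries leave possible. Taken one subunit at a time, the 95% intervals for PF8503 reached down to -0.29 (CCT8, a fold of 0.817) and up to 0.25 (CCT7, a fold of 1.19). For PF846 they reached down to -0.17 (CCT8, a fold of 0.886) and up to 0.20 (CCT7, a fold of 1.15). The median log2 change over the 8 subunits was -0.03 with PF8503 and 0.02 with PF846, beside 0.01 and 0.001 over all transcripts tested. Without the c libraries the medians were 0.04 and 0.06, beside 0.01 and 0.001, so the median with PF8503 changed sign. With 1 library left out at a time the medians ran from -0.06 to 0.02 with PF8503 and from -0.02 to 0.04 with PF846. The central 95% of all transcripts ran from -0.33 to 0.28 with PF8503 and from -0.24 to 0.22 with PF846, and all 8 subunits lay inside it with both compounds. The authors' means, from which the reads were recovered, have to give nearly the same and are no second observation. The log2 ratio of their means had a median of -0.03 over the 8 subunits with PF8503, from -0.06 (CCT8) to 0.05 (CCT7), and of 0.02 with PF846, from -0.01 (CCT8) to 0.05 (CCT7).

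PF8503 and PF846 were given at the same dose for the same time, so they were also compared directly in 1 pair, over the 8629 transcripts whose vehicle reads were the same in both tables. Here 0 of 8 subunits were higher and 0 of 8 lower with PF8503 than with PF846, against 2 lower (0.0232%) and 0 higher (0.0%) of all transcripts (limma, adjusted p under 0.05). When 1 library was left out, between 1 (without vehicle b, PF8503 b or any of the PF846 libraries) and 4 (without PF8503 c) transcripts were called. At an unadjusted p under 0.05, 2.33% of transcripts were counted and 0 of 8 subunits. The estimates ran from -0.08 ± 0.088 for CCT2 to 0.01 ± 0.079 for CCT5 (log2, limma estimate ± SE, adjusted p = 1.00 for all 8), with 7 of 8 below 0. Their median was -0.05, beside 0.01 over all transcripts. Without the c libraries it was -0.03, with 6 of 8 below 0. Leaving out 1 library at a time put between 0 (without PF8503 a) and 4 (without PF8503 c) of the 8 estimates above 0. The 95% intervals reached from -0.27 for CCT2 (a fold of 0.829) to 0.18 for CCT5 (a fold of 1.14), so differences between the compounds inside that range could not be seen here. The log2 ratios of the authors' means gave a median of -0.05, from -0.08 (CCT2) to 0.02 (CCT5).

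**Figure D4:**
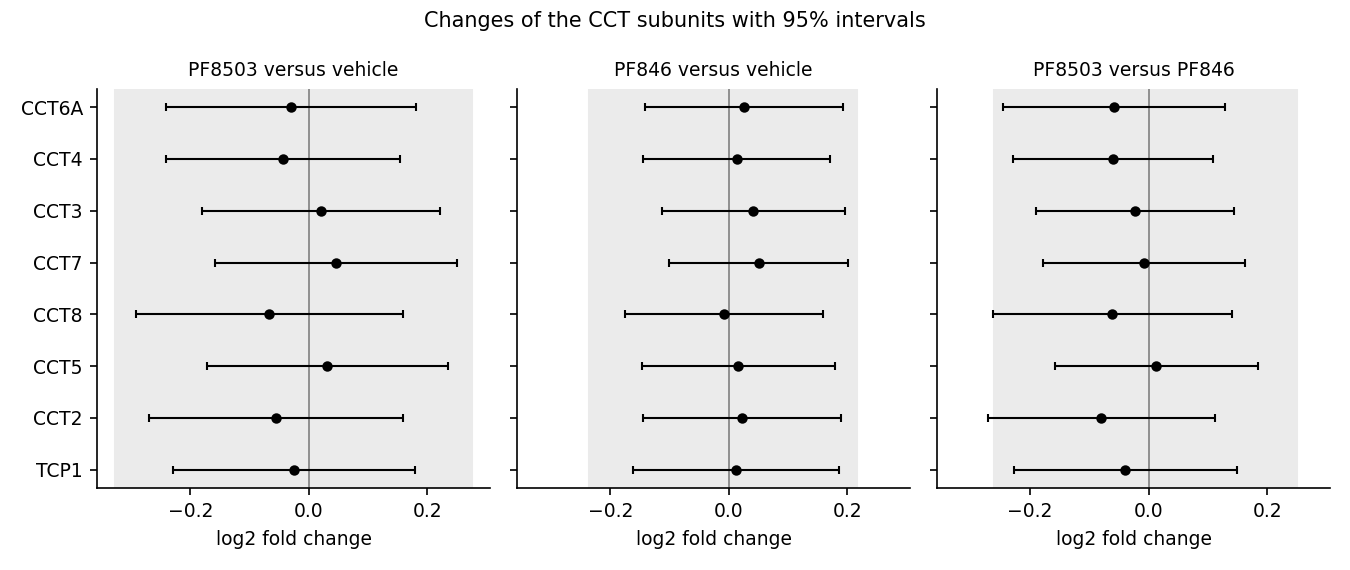
Log2 fold change of each CCT subunit (horizontal axis) for PF8503 against vehicle, PF846 against vehicle and PF8503 against PF846. Points are limma estimates and bars their 95% intervals (3 libraries per condition), and the grey band is the central 95% of all transcripts. Every interval spans 0 and every estimate lies inside the band.

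The ring moved little between libraries of 1 condition. The SD of log2 normalised reads within conditions, pooled over the 9 libraries, was 0.051 for CCT3, 0.056 for CCT4, 0.062 for CCT7 and 0.064 for CCT5. It was 0.085 for CCT6A, 0.089 for TCP1, 0.094 for CCT2 and 0.107 for CCT8. The median was 0.158 over all transcripts and 0.114 over the 93 transcripts with levels between those of the lowest and the highest subunit. The median deviation of the 8 subunits from their group mean was 0.09 in PF8503 a and -0.09 in PF8503 c, and 0.08 in PF846 a and -0.05 in PF846 c. In the vehicle libraries it was -0.001, -0.01 and 0.03 for a, b and c. All 8 subunits were above their group mean in PF8503 a and in PF846 a, and all 8 were below it in PF846 c.

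The genes that work with the ring were described in the same way. All 6 prefoldin subunits were tested, and 0 passed the threshold in either direction with either compound (limma). Their median log2 change was -0.07 with PF8503 and -0.02 with PF846. The estimates with PF8503 ran from -0.18 for PFDN4 to 0.01 for PFDN2 and those with PF846 from -0.16 for PFDN6 to 0.05 for PFDN1. The chaperonin cofactors were phosducin-like proteins, TXNDC9 and subunits of the prefoldin-like complex, and 6 of 7 were tested, with 0 past the threshold. TXNDC9, a thioredoxin-domain protein that binds CCT, had the lowest estimate with both compounds, -0.23 with PF8503 and -0.09 with PF846. PDRG1, a subunit of the prefoldin-like complex, had the highest, 0.22 with PF8503 and 0.10 with PF846.

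Of the 25 clients listed (actins, tubulins, WD40 proteins and others that CCT folds), 19 were tested with PF8503 and 18 with PF846, and 0 passed the threshold in either direction (limma). The median was 0.05 with PF8503 and 0.02 with PF846. TUBG1, the gamma-tubulin of microtubule nucleation, had the highest estimate with PF8503 at 0.26 (unadjusted p = 0.0195, adjusted p = 1.00), and TUBA1B, an alpha-tubulin, the lowest at -0.12. With PF846 the lowest was ACTG1, the cytoplasmic gamma-actin, at -0.05 and the highest TUBB4A, a beta-tubulin, at 0.21. The most abundant client, ACTB (beta-actin), had several possible read counts behind its mean and was left out of the fits. The log2 ratio of its authors' means was 0.05 with PF8503 and -0.07 with PF846. Tubulin paralogs are close to identical over long stretches, and only reads with a single position were counted, so their levels are uncertain.

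Of the 7 other chaperonins and chaperonin-like genes listed, 5 were tested and 0 passed the threshold in either direction with either compound (limma). MKKS had the lowest estimate of the list with both. It is a chaperonin-like protein related to the CCT subunits, which works with the Bardet-Biedl syndrome proteins in assembling their complex. It had 181.7, 219.1 and 166.3 normalised reads with vehicle, 98.5, 115.5 and 86.5 with PF8503 and 135.2, 147.6 and 155.4 with PF846. All 3 PF8503 libraries were below all 6 of the others, and all 3 PF846 libraries were below all 3 vehicle libraries. Of all transcripts, 6.10% had no overlap between PF8503 and vehicle and 4.67% none between PF846 and vehicle. The log2 change with PF8503 was -0.91 ± 0.165 and missed the threshold (limma, adjusted p = 0.0518). With a term for the c libraries, an alternative chosen after seeing the data, the estimate was -0.91 ± 0.134 with an adjusted p of 0.00397. Over the other alternatives its adjusted p ran from 0.0515 to 0.393, so this call depended on the setting. With PF846 the log2 change was -0.36 ± 0.138 (limma, unadjusted p = 0.0228, adjusted p = 1.00). The difference between the compounds, -0.55 ± 0.152, did not pass the threshold either (limma, unadjusted p = 0.00348, adjusted p = 1.00).

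HSPD1, the mitochondrial chaperonin of the GroEL type, had 27685, 25959 and 26291 normalised reads with vehicle, 28475, 22767 and 22031 with PF8503 and 28843, 26903 and 25130 with PF846. Its log2 change was -0.13 with PF8503 and 0.02 with PF846 (limma, adjusted p = 1.00 for both). The former was -0.25 without PF8503 a and -0.06 without PF8503 c, and the latter -0.03 without PF846 a and 0.06 without PF846 c. HSPE1, its small lid partner, had 3140, 3099 and 1815 with vehicle, 2711, 2947 and 1822 with PF8503 and 3028, 2499 and 2116 with PF846, so its lowest value was in the c library of every condition. Its log2 change was -0.09 ± 0.225 with PF8503 and -0.05 ± 0.194 with PF846 (limma, adjusted p = 1.00 for both). Without all 3 c libraries the estimates were -0.14 ± 0.092 and -0.18 ± 0.096. With 1 library left out at a time they lay on both sides of 0, from -0.35 (without vehicle c) to 0.12 (without PF8503 c) with PF8503 and from -0.31 (without vehicle c) to 0.09 (without vehicle a) with PF846, and none passed the threshold (limma, lowest adjusted p = 0.963). BBS10, a further chaperonin-like protein, had the highest estimate of this list with both compounds, 0.19 with PF8503 and 0.05 with PF846. CCT6B, at 89.7, 82.0 and 95.4 normalised reads with vehicle and 81.0, 50.7 and 69.2 with PF8503, had a log2 change of -0.43 (limma, unadjusted p = 0.0556, adjusted p = 1.00). With PF846 it had 84.0, 78.7 and 101.7 and a log2 change of -0.02. Its lowest normalised value, in PF8503 b, came from 58 reads.

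**Figure D5:**
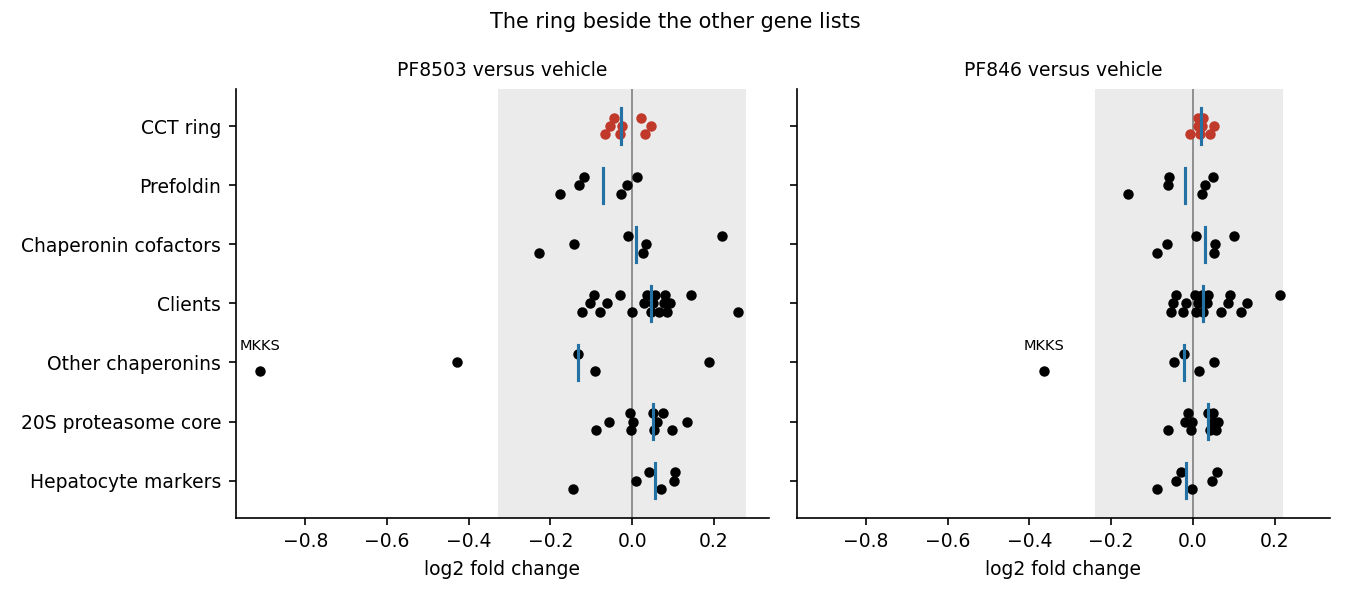
Log2 fold change (horizontal axis, limma estimates) of the tested members of each gene list with PF8503 (left) and PF846 (right). Points are genes, with the CCT ring in red, vertical lines are list medians and the grey band is the central 95% of all transcripts. The ring lies between -0.07 and 0.05 with PF8503, and MKKS lies at -0.91 and -0.36.

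Of the 11 proteasome core subunits tested, 0 passed the threshold with either compound (limma), with medians of 0.05 and 0.04. PSMA4 had the lowest estimate with PF8503 at -0.09 and PSMA1 the highest at 0.13, while with PF846 PSMA7 was the lowest at -0.06 and PSMB7 the highest at 0.06. The tested hepatocyte markers, 6 of 9, held 0 called genes and had medians of 0.06 with PF8503 and -0.02 with PF846. FGB, the fibrinogen beta chain, was the lowest with PF8503 at -0.15 and HNF4A, a hepatocyte transcription factor, the highest at 0.10. With PF846 the apolipoprotein APOA1 was the lowest at -0.09 and HNF4A the highest at 0.06. ALB, AFP and APOB, like ACTB, had several possible read counts and were not tested. The log2 ratios of their authors' means were -0.02, -0.14 and -0.07 with PF8503 and -0.06, -0.09 and 0.07 with PF846. PECAM1 had 147.5, 172.8 and 156.1 normalised reads with vehicle and a log2 change of 0.18 with PF8503 and 0.04 with PF846 (limma, adjusted p = 1.00 for both).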

How the data were processed

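Per the labels and the study's methods, footprint libraries of Huh-7 cells (3 conditions, 3 libraries each) were stripped of adapters and rRNA, aligned with Bowtie to canonical coding transcripts (GENCODE version 24, GRCh38), and kept where a read had 1 position. Reads were summed 3' of DMax, the codon of largest difference between cumulative reads, if that difference had a Z score of 2 or more, else from codon 10 to 10 codons before the end. The deposited signal is, per transcript and condition, the authors' mean of reads divided by DESeq size factors, in 1 table per compound (9157 and 8839 transcripts, 8775 in both). The tables also hold the authors' fold changes and p-values, which were not used. Columns of single samples left unused numbered 0.

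Each mean is the mean of 3 whole read counts, each divided by its library's size factor, so reads were recovered by lattice reduction from the 15 digits given. In every column 21 short integer relations among 24 means were found, as 3 libraries require. Solutions were counted within set limits around equal normalised reads in the 3 libraries, and the nearest to equal was taken. At least 99.88% of transcripts had no second solution within these limits, and those with several were left out. The recovery thus assumes that the libraries of a condition are alike. Vehicle reads, solved separately in the tables, were identical for 8629 of 8764 transcripts (98.46%). Size factors recomputed by the median-ratio rule from the recovered reads differed by at most 0.0128%. The recovery used this same gap to decide when to stop, so it is no independent check. The lowest read count in a library was 30. Recovered libraries cannot be tied to replicate numbers.

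Log2(reads / size factor + 0.5) was tested with limma 3.58.1 (lmFit, eBayes with trend, R 4.3.3) over all transcripts of a table, with Benjamini-Hochberg adjustment and a threshold of 0.05. Each compound was tested against vehicle on its 6 libraries, and the compounds on all 9. The test and the recovery were tested on simulated data. Coding lengths, coordinates and sequences came from GENCODE version 44 on GRCh38, whose canonical transcripts may differ from those the authors used. Alternatives were adjusted p under 0.01 or 0.1, a mean of at least 100, a pseudocount of 5, library totals, voom weights, each library left out, and, for means, equal totals, centring and 10 added to both. Levels per codon were also computed over all codons, from the PF846 table and scaled to the median subunit. The 2 alternatives for the c libraries were added after seeing the data. The members and lists were chosen with earlier results of these data known. Genes named were the 8 subunits, MKKS, HSPD1 and HSPE1, and of each other list those past the threshold and the lowest and highest estimate with each compound. Transcripts named beyond that rule, CCT6B, PFDN5, PSMB1, PSMB5, PSMA3, PECAM1, ACTB, ALB, AFP and APOB, were chosen after their values were seen.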

Additional observations from a re-analysis of the deposited data

How the results depend on the processing

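None of the 8 CCT subunits passed the threshold in any of the 312 limma fits made under 15 alternatives (lowest adjusted p = 0.945). Their estimates ran from -0.13 (CCT2, PF8503 against PF846, without PF8503 a) to 0.09 (CCT5, PF8503 against vehicle, without the c libraries). Leaving out 1 library in turn gave 22 to 46 called transcripts for PF8503 against vehicle (37 with all libraries), 15 to 18 for PF846 against vehicle (22) and 1 to 4 for PF8503 against PF846 (2). Against vehicle, PF8503 called 22 without vehicle b and 24 without vehicle a. With a term for the c libraries, chosen after seeing the data, 90 transcripts were called with PF8503 and 20 between the compounds. When the c libraries were left out, 47 were called with PF8503 and 6 between the compounds. At an adjusted p under 0.01, PF8503 called 24 and the comparison of the compounds 1, and at 0.1 the latter called 8. The cause was not tested. MKKS with PF8503 passed the threshold only with the term for the c libraries (-0.91). Scaling to the median subunit raised all percentages of the ring (TCP1 to 93.80%, CCT6A to 165.72%), and by construction keeps their order and ratios. From the authors' vehicle means per codon, the ratio of the highest to the lowest subunit was 1.77, and 1.76 with all codons of the coding sequence. The median log2 ratio of the authors' means with PF8503 was between -0.04 and -0.02 under the alternatives run. No paired analysis was possible because the recovered libraries carry no replicate number, and the term for the c libraries was chosen from the data, not from the labels. In the run names that the labels list, 2 libraries of each condition share a lane code and the third has another, and the codes differ between conditions. The effects of lane and of treatment cannot be told apart, and whether the c libraries are those with the other lane code was not tested. With 3 libraries per condition, changes of a subunit smaller than its interval could not be seen.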
